A study of Mus musculus with 6 samples.

Results

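The 40 genes described here encode the machinery, apart from the ribosome itself, with which mitochondria translate their own genome: 16 aminoacyl-tRNA synthetases, 3 subunits of an amidotransferase, 9 initiation, elongation, release and recycling factors, 5 enzymes that formylate or modify tRNAs, and 7 proteins that bind mitochondrial mRNAs, activate their translation or insert the products into the membrane. They were chosen by name from 55471 genes in a table of RNA sequencing counts, with earlier results of these data known. All 40 were found and all 40 passed the filter on low counts, as 13044 genes did in all. The RNA came from a cultured mouse undifferentiated pleomorphic sarcoma (UPS) line, a soft-tissue tumour line labelled as metastatic and grown in serum-supplemented DMEM. There were 3 control libraries of genotype WT, whose titles carry the tag AAV2, and 3 libraries of genotype Setd1a Knock Out, whose titles carry a numeric tag; libraries are numbered 1 to 3 in each group. The labels do not say what the tags mean, how the knockout was made, whether it is 1 clone, or whether replicates were separate cultures, so the tests see only the spread among the 6 libraries, which may be technical. Setd1a encodes a histone H3 lysine 4 methyltransferase of the COMPASS family, and the comparison asks how expression differs between libraries labelled as its knockout and their controls.

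Setd1a itself stood at 71.0, 75.3 and 73.5 CPM (counts scaled to a common library size) in controls 1, 2 and 3 and at 53.2, 68.7 and 56.3 CPM in the knockouts. Every knockout library lay below every control, but the difference did not pass (ratio 0.806, adjusted p = 0.0913 paired and 0.426 without pairing, edgeR). The transcript was present in all 6 libraries, and 52.3% of its exonic bases are shared with another gene. Counts per gene do not show whether its coding sequence was disrupted. Of the mesenchymal markers set for a sarcoma line, all 9 were expressed. They summed to between 8123.0 and 8386.5 CPM in the controls and between 6819.6 and 8134.5 CPM in the knockouts. Markers of other cells were mostly low: the median marker stood at 0.0185 CPM for macrophages, where 3 of 8 had no count in any library, and at 0.203 CPM for endothelium, where 1 of 7 had none. Of the 6 epithelial markers 4 were tested, and their sum spanned 52.9 to 91.4 CPM in the controls and 50.1 to 95.6 CPM in the knockouts. The 7 muscle differentiation markers summed to at most 1.71 CPM in any library. Summed macrophage markers spanned 7.41 to 8.99 CPM in the controls and 8.09 to 15.2 CPM in the knockouts, and endothelial ones 1.33 to 2.63 and 2.89 to 4.35 CPM; their part in the results was not tested.

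Mitochondria keep a small genome whose mRNAs encode core subunits of the respiratory chain, and these mRNAs are translated inside the organelle by a dedicated ribosome. All the proteins of that system are encoded in the nucleus and imported. Each amino acid has a synthetase that loads it onto its tRNA, with one exception in mammals: glutamine is first loaded as glutamate by the glutamyl-tRNA synthetase and then converted on the tRNA by the GatCAB amidotransferase.

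The machinery was lower in the Setd1a knockout libraries in a few members, most clearly in the amidotransferase subunit gene Gatb, the synthetase genes Iars2 and Tars2, and Taco1, a translational activator of the cytochrome c oxidase subunit I mRNA. In the paired edgeR test, which compares libraries of the same number, these 4 of the 40 members fell and 0 rose; of all 13044 genes tested, 0.851% fell and 1.43% rose, 2.28% in all. In the edgeR test without pairing 0 members passed, and neither did any other gene (0.0% of all tested). Without adjustment, at p under 0.05, it gave 9 members lower and 1 higher (4.51% and 5.5% of all genes), and the paired test 15 and 1 (9.62% and 9.94% of all genes). In 13 of the 40, every knockout library lay below every control (7.77% of all genes did so), and in 2 every knockout lay above (7.49% of all genes). Taken pair by pair, 20 members were lower in all 3 pairs and 4 higher in all 3, shares to be read against 21.6% and 19.9% of all genes. The log2 change was below 0 for 32 of 40 members, as for 49.8% of all genes, and the median was -0.20 for the members and 0.00 for all genes. As the members were chosen with earlier results of these data known, these shares describe them and are no independent evidence. Summed over the members, CPM were 1800.6 ± 58.7 in the controls and 1641.6 ± 74.1 in the knockouts (mean ± SD, n = 3). A two-sided exact permutation test of this sum gave p = 0.1, which 3 libraries against 3 cannot go below. Because of the same choice of members, this test is no independent evidence either. The sum also gives most weight to abundant members. Mean CPM of Iars2 alone was 102.1 among knockout libraries, down from 154.5 among control libraries. The sum therefore does not show a fall of the members at large. In RNA of a whole culture, fewer cells expressing a gene and less RNA per cell cannot be told apart.

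Whether these members passed depended on which pairs entered the paired test, while their log2 changes stayed of similar size. Without pair 3 the test called 0 genes, with log2 changes and adjusted p-values of -0.88 and 0.0627 for Gatb, -0.69 and 0.0611 for Iars2, -0.52 and 0.064 for Tars2, and -0.66 and 0.0936 for Taco1 (edgeR, paired). Without pair 1 it called 6 members and without pair 2 it called 5, all lower. Over all genes it called 507 higher and 207 lower without pair 1, and 140 and 54 without pair 2. With all pairs it called 187 and 111. DESeq2 called Gatb, Iars2 and Tars2 without pairing as well, and those 3 with Taco1 when paired. From here on, a fall or a rise means a call by edgeR with pairing, and adjusted p-values (Benjamini-Hochberg) are over all genes. That test was the alternative, and the main test, without pairing, called 0 genes, so no fall or rise below passed the main test. The pairing is not stated by the labels and rests on correlations in these same counts.

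**Figure D1:**
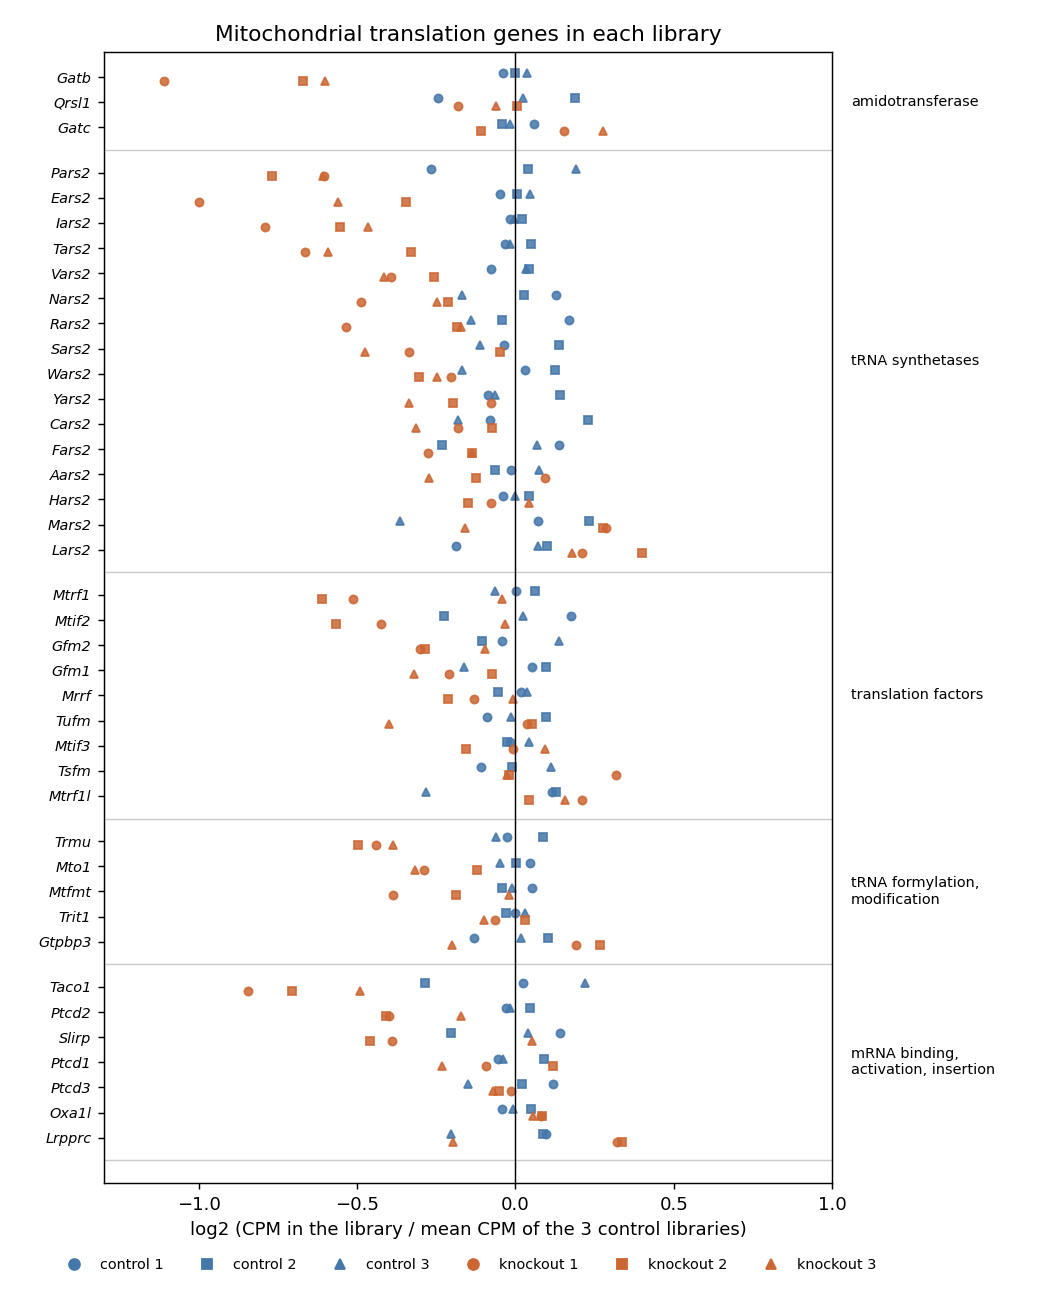
Each row is 1 of the 40 members, sorted by its log2 change within its role; points are the 6 libraries (circles, squares and triangles for numbers 1, 2 and 3), placed by log2 of their CPM over the mean of the 3 controls. The knockout points of Gatb, Iars2, Tars2 and Taco1 lie apart from the control points on the left, while the groups overlap in 25 of the 40 rows.

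Within the GatCAB amidotransferase, Gatb stood apart from its partners. Gatb (ENSMUSG00000028085, chromosome 3, positions 85574119 to 85655622 of GRCm38), which encodes the subunit that binds the misacylated tRNA, had 14.7, 15.1 and 15.5 CPM in the controls and 6.99, 9.49 and 9.95 CPM in the knockouts. The highest knockout library was well under the lowest control, and the library counts behind these values ran from 127 to 277 reads. Gatb fell to 0.579 of the control level, a log2 change of -0.79 ± 0.13 (SE, adjusted p = 0.0257 paired and 0.18 without pairing). Over the 17 alternative settings the adjusted p ranged from 0.00252 to 0.49 and the log2 change from -0.88 to -0.63. Gatc (chromosome 5, 115333239 to 115341178), the small stabilising subunit, had 48.5, 45.2 and 46.0 CPM in the controls and 51.8, 43.2 and 56.4 CPM in the knockouts. Those groups overlapped, and the paired log2 change was 0.11 ± 0.1 (SE, adjusted p = 0.6 paired and 0.86 without pairing, edgeR). Qrsl1 (chromosome 10, 43874188 to 43901745), the catalytic subunit, had 11.2, 15.1 and 13.5 CPM in the controls against 11.7, 13.3 and 12.7 CPM in the knockouts. Its groups also overlapped (paired log2 change -0.07 ± 0.11, adjusted p = 0.787 paired and 0.947 without pairing, edgeR).

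Ratios within a library compare the subunits directly. The log2 ratio of Gatb to Gatc was -1.72, -1.58 and -1.57 in the controls and -2.89, -2.19 and -2.50 in the knockouts. That ratio was lower in the knockouts by 0.90 on average, with no overlap between the groups (p = 0.1 by a two-sided exact permutation, the lowest that can be reached). Against Qrsl1, the log2 ratio was 0.39, 0.00 and 0.20 in the controls and -0.74, -0.48 and -0.35 in the knockouts, again with no overlap (exact two-sided permutation p = 0.1). The Gatb transcript was thus lower relative to each partner in all 3 knockout libraries. Gatb was singled out because earlier results of these data had placed it among the lowest genes. Its log2 change was also the lowest of all members, so these ratios restate its fall and are no separate evidence for it.

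**Figure D2:**
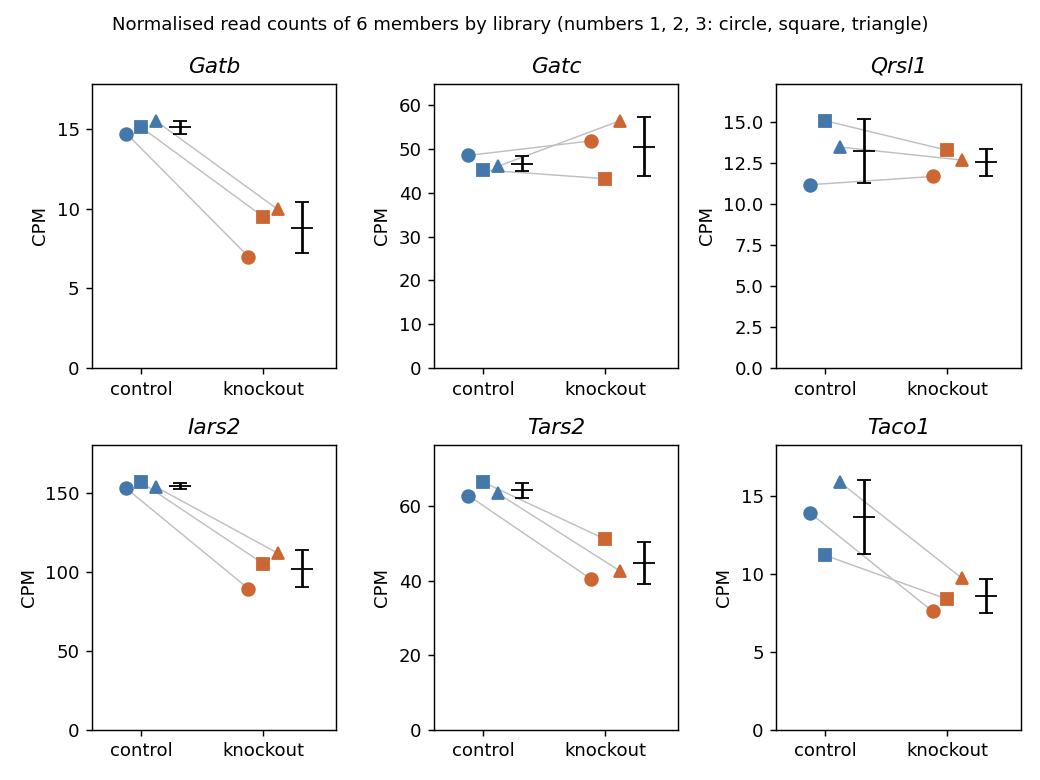
CPM of Gatb, Gatc, Qrsl1, Iars2, Tars2 and Taco1 in each library, with axes from 0; grey lines join libraries of the same number, and the black bar is the mean with its SD over 3 libraries. In Gatb, Iars2, Tars2 and Taco1 the knockout libraries all lie below the controls, while the groups of Gatc and Qrsl1 overlap.

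Among the 16 synthetases, 14 had a log2 change below 0, with a median of -0.27, and 2 fell. Iars2 (chromosome 1, 185284726 to 185329396), the isoleucyl-tRNA synthetase, had 152.8, 156.8 and 153.9 CPM in the controls and 89.3, 105.2 and 111.8 CPM in the knockouts. Its controls were almost level and every knockout was far below them. Iars2 fell to 0.658 of the control level, a log2 change of -0.60 ± 0.08 (SE, adjusted p = 0.0184 paired and 0.157 without pairing; 1.64e-06 to 0.475 over the alternatives). Of the exonic bases of Iars2, 24.2% are shared with Rab3gap2 on the other strand, which had 147.5, 166.4 and 147.9 CPM in the controls and 169.9, 181.1 and 132.5 CPM in the knockouts, so its groups overlapped. Tars2 (chromosome 3, 95739976 to 95760206), the threonyl-tRNA synthetase, shares no exonic base with another gene. It had 62.8, 66.4 and 63.4 CPM in the controls and 40.5, 51.1 and 42.6 CPM in the knockouts, with knockout 2 the nearest to the controls. Tars2 fell to 0.694 of the control level, a log2 change of -0.53 ± 0.09 (SE, adjusted p = 0.0276 paired and 0.194 without pairing; 0.00116 to 0.508 over the alternatives).

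Ears2 and Pars2 lay just outside the threshold. Ears2, the glutamyl-tRNA synthetase that supplies the substrate of GatCAB, had 13.4, 13.9 and 14.3 CPM in the controls and 6.94, 10.9 and 9.40 CPM in the knockouts. Every knockout was lower, knockout 1 most of all, and the paired adjusted p was 0.0513 (log2 change -0.63 ± 0.14, SE; adjusted p 0.316 without pairing). Pars2, the prolyl-tRNA synthetase, had 7.86, 9.71 and 10.8 CPM in the controls and 6.22, 5.55 and 6.21 CPM in the knockouts. Its knockouts were close together below a wider spread of controls (paired log2 change -0.65 ± 0.15, adjusted p = 0.0548). Without pair 1, both Ears2 and Pars2 passed (adjusted p = 0.0456 and 0.00109), and without pair 2, Ears2 did (adjusted p = 0.0447). These fits have fewer libraries from which to estimate the spread, so such passes are no stronger evidence than the test of all pairs.

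The valyl-tRNA synthetase gene Vars2 had 41.6, 45.2 and 44.9 CPM in the controls and 33.4, 36.7 and 32.9 CPM in the knockouts. Its groups did not overlap, and its paired adjusted p was 0.0725 (log2 change -0.35 ± 0.09). In Nars2, the asparaginyl-tRNA synthetase gene, the controls had 16.1, 15.0 and 13.1 CPM and the knockouts 10.5, 12.7 and 12.4 CPM. The arginyl-tRNA synthetase gene Rars2 had 30.1, 26.0 and 24.3 CPM in the controls and 18.5, 23.6 and 23.8 CPM in the knockouts. Both pairs of groups were separate by a small margin, with paired adjusted p-values of 0.226 and 0.278. The tryptophanyl-tRNA synthetase gene Wars2 had 19.3, 20.6 and 16.8 CPM in the controls and 16.4, 15.3 and 15.9 CPM in the knockouts, separate by less than 1 CPM (adjusted p = 0.261). Sars2, for serine, had 24.0, 27.1 and 22.8 CPM in the controls and 19.5, 23.8 and 17.7 CPM in the knockouts, where knockout 2 lay within the control range (adjusted p = 0.161).

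Lars2, the leucyl-tRNA synthetase gene, was the 1 synthetase whose knockout libraries all lay above the controls. It had 74.6, 91.2 and 89.3 CPM in the controls and 98.3, 112.2 and 96.2 CPM in the knockouts, a paired log2 change of 0.27 ± 0.08 with an adjusted p of 0.112. Mars2, for methionine, had 39.5, 44.2 and 29.2 CPM in the controls and 45.9, 45.6 and 33.7 CPM in the knockouts, and its groups overlapped (adjusted p = 0.407). In Aars2, Cars2, Fars2, Hars2 and Yars2 (for alanine, cysteine, phenylalanine, histidine and tyrosine) the groups also overlapped, with log2 changes from -0.20 in Yars2 to -0.06 in Hars2 and adjusted p-values from 0.302 to 0.816 in the paired test. The synthetases thus ran from -0.66 to 0.27 on the log2 scale.

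None of the 9 translation factors passed the test, and in all 9 the groups overlapped; 7 lay below 0, with a median log2 change of -0.12. Tufm, the elongation factor that brings loaded tRNAs to the ribosome, had 199.1, 226.6 and 209.5 CPM in the controls and 217.2, 219.3 and 160.5 CPM in the knockouts. Only knockout 3 stood below the control range, and the log2 change was -0.09 ± 0.13 (adjusted p = 0.928 without pairing). Of the longest Tufm transcript, 77.5% matches Gm9755 at 95% identity or more, so its reads may be split between them; Gm9755 had between 2.53 and 3.91 CPM in the 6 libraries. Gfm1, the translocation factor, had 169.8, 175.0 and 146.4 CPM in the controls and 141.5, 155.6 and 131.1 CPM in the knockouts, lower in each pair but with overlapping groups (paired adjusted p = 0.166). Mtif2, the initiation factor that places the formylated methionyl-tRNA, had 35.8, 27.1 and 32.2 CPM in the controls and 23.6, 21.4 and 31.0 CPM in the knockouts. Here knockouts 1 and 2 were low and knockout 3 was within the control range (paired adjusted p = 0.17). Mtrf1, of the release factor family, had 6.69, 6.98 and 6.39 CPM against 4.68, 4.38 and 6.49 CPM in the knockouts, with the same arrangement (adjusted p = 0.259).

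Gfm2, which acts in ribosome recycling, was lower in each pair, with log2 ratios of knockout to control of -0.26, -0.18 and -0.23. Its partner Mrrf, the recycling factor, gave -0.15, -0.16 and -0.05. Neither passed (paired adjusted p = 0.222 and 0.535), and 30.1% of the longest Mrrf transcript matches Gm6374. The exchange factor gene Tsfm, the initiation factor gene Mtif3 and the release factor gene Mtrf1l had log2 changes of 0.10, -0.02 and 0.14, each within 1 SE of 0, and 29.4% of the exonic bases of Mtif3 are shared with Gtf3a.

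Of the 5 genes for tRNA formylation and modification, 4 lay below 0 and 0 passed. Trmu, which thiolates the wobble base of mitochondrial tRNAs, was the lowest of all 40 members per length of exon. It had 7.69, 8.32 and 7.51 CPM in the controls and 5.78, 5.55 and 5.99 CPM in the knockouts, 2 tight groups with no overlap (paired log2 change -0.44 ± 0.14, adjusted p = 0.122). Mto1, which works with Gtpbp3 on the same wobble base, had 26.5, 25.7 and 24.8 CPM in the controls and 21.0, 23.6 and 20.6 CPM in the knockouts, also without overlap (adjusted p = 0.226). Gtpbp3 had 27.7, 32.6 and 30.7 CPM in the controls and 34.6, 36.5 and 26.4 CPM in the knockouts, higher in pairs 1 and 2 and lower in pair 3 (adjusted p = 0.738). Mtfmt, the methionyl-tRNA formyltransferase gene, had a log2 change of -0.19 ± 0.14, and Trit1, which isopentenylates tRNAs, one of -0.04 ± 0.12. The groups of both overlapped.

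Among the 7 mRNA-binding and insertion factors, Taco1 fell and the others did not pass. Taco1 (chromosome 11, 106066061 to 106073612) had 13.9, 11.2 and 15.9 CPM in the controls and 7.60, 8.38 and 9.73 CPM in the knockouts. The controls were spread widely, yet all lay above the highest knockout. Taco1 fell to 0.629 of the control level, a log2 change of -0.67 ± 0.13 (SE, adjusted p = 0.0363 paired and 0.239 without pairing; 0.0151 to 0.594 over the alternatives). Of its exonic bases, 17.7% are shared with the antisense gene Taco1os, which held between 0.11 and 0.443 CPM. The mRNA whose translation Taco1 activates, mt-Co1, had 9115.8, 8557.7 and 9106.6 CPM in the controls and 8896.2, 9885.5 and 13057.6 CPM in the knockouts. Those groups overlapped, with knockout 3 the highest (paired log2 change 0.23 ± 0.11, adjusted p = 0.298).

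Ptcd2, a pentatricopeptide protein that acts on cytochrome b transcripts, had 53.6, 56.5 and 54.0 CPM in the controls and 41.5, 41.2 and 48.6 CPM in the knockouts. Its groups did not overlap, and its paired adjusted p was 0.0974 (log2 change -0.32 ± 0.09). Ptcd1 and Ptcd3, of the same family, had log2 changes of -0.06 ± 0.13 and -0.05 ± 0.10. The proteins of Lrpprc and Slirp form a complex that stabilises mitochondrial mRNAs. Lrpprc had 145.0, 144.0 and 117.6 CPM in the controls and 169.2, 171.1 and 118.3 CPM in the knockouts, higher in pairs 1 and 2 and level in pair 3. Slirp had 37.3, 29.4 and 34.8 CPM in the controls and 25.8, 24.6 and 35.1 CPM in the knockouts, lower in pairs 1 and 2 and level in pair 3. Neither passed (paired adjusted p = 0.288 and 0.264), and since 97.8% of the exonic bases of Slirp are shared with other genes, chiefly Snw1, its counts are uncertain and were not compared with those of Lrpprc. Oxa1l, which inserts the new proteins into the inner membrane, had 72.3, 77.0 and 74.1 CPM in the controls and 78.7, 79.0 and 77.3 CPM in the knockouts. All its knockouts were above the controls by a margin under 1 CPM at the nearest point, and the adjusted p was 0.661.

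Per length, the members spanned a wide range of levels. Tufm was the most abundant at 99.6 ± 6.52 CPM per kilobase of exon in control and 93.6 ± 15.7 in knockout libraries (mean ± SD, n = 3), and Gfm1 followed at 37.1 ± 3.44 and 32.3 ± 2.78. Ptcd2 at 32.1 ± 0.935 and Gatc at 25.9 ± 0.965 came next in the controls, further apart than their spread. In the knockouts Ptcd2 had 25.7 ± 2.47 and Gatc 28.1 ± 3.71, which differed by less than their spread. Gatb was near the low end, at 3.51 ± 0.094 in the controls, level with its partner Qrsl1 at 3.42 ± 0.498, while in the knockouts Gatb had 2.05 ± 0.37 and Qrsl1 3.24 ± 0.208. Trmu was lowest at 1.97 ± 0.107 in the controls and 1.45 ± 0.0558 in the knockouts. These lengths take in every annotated exon, so a gene with long rare isoforms reads low. Of the members that fell, Iars2 stood at 17.4 ± 0.233, Taco1 at 9.89 ± 1.69 and Tars2 at 9.27 ± 0.28 CPM per kilobase in the controls, between the most abundant members and Gatb.

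**Figure D3:**
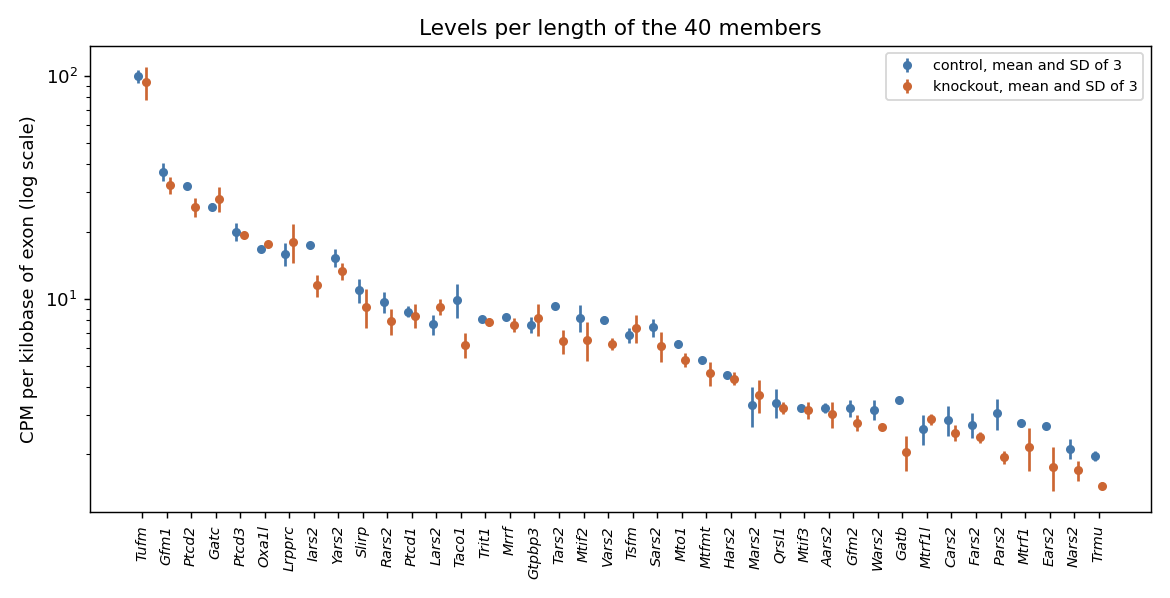
CPM per kilobase of annotated exon for the 40 members on a log axis, sorted by the mean over all libraries; points are means of 3 libraries and bars their SD, for control and knockout. The range runs from Tufm, near 99.6 in the controls, to Trmu at 1.97. Gatb, Iars2, Tars2 and Taco1 show knockout means below the control error bars, but so do many members that did not pass. Among these are Hars2 and Trit1, with log2 changes of only -0.06 and -0.04 without pairing.

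Promoter windows from RefSeq (GRCm38.p6, 250 bases before to 50 after the start site) were at hand for 36 of the 40 members. They were rich in CpG, with a median of 21 CpG per window, close to the 22 of the 9284 tested protein-coding genes that had a window. Letters known from regulators of nuclear genes for mitochondria were searched on both strands. The YY1 letters AAGATGGC were in 9 of 36 member windows (25%), against 4.94% of tested genes and 3.27% of all protein-coding genes; mitochondrial ribosomal protein genes had them in 12 of 69 (17.4%). In 7 of the 9 they began 6 to 19 bases after the start site, all on the coding strand; 19.4% of the member windows and 1.34% of those of tested genes had them within 20 bases after it. The ATG inside them was an annotated start codon in 6 of the 7. These stretches are shown because they share a feature that played no part in the choice of members; capitals mark the YY1 letters, and the positions are on chromosome 17 from 45506840 (Aars2), chromosome 3 from 99141085 (Wars2), chromosome 16 from 16302970 (Yars2), chromosome 9 from 78448216 (Mto1), chromosome 4 from 123016596 (Trit1), chromosome 6 from 71908725 (Ptcd3, minus strand) and chromosome 14 from 54360841 (Oxa1l).
Aars2: tgcccggagctAAGATGGCggtggcgttgg
Wars2: ccgcccttctcAAGATGGCgctgttctctg
Yars2: gcgtgtcccgcAAGATGGCggcgcccatgc
Mto1: ctgactcggccAAGATGGCgacgcccagct
Trit1: cagatgccttcAAGATGGCggctgcggctg
Ptcd3: cgaagagtccaAAGATGGCggcggcggcgg
Oxa1l: ctcttcccggcAAGATGGCgaggaatttag

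None of these 7 genes passed the test. The median log2 change was -0.20 in the 9 members with the YY1 letters and -0.19 in the 27 without them. The ETS letters CCGGAAG were in 27.8% of member windows and 19.3% of those of tested genes, the NRF1 core CGCATGCG in 8.33% and 4.11%, the cyclic AMP response letters TGACGTCA in 2.78% and 3.36%, and the ATF4 element TGATGNAA in 0 of 36 and 2.14%. The windows of mitochondrial ribosomal protein genes held the ETS letters in 34.8% and the NRF1 core in 10.1%. Cytosolic synthetases, for comparison, had the ATF4 letters in 4 of 10 windows. A match is a description of letters and not a site.

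The 250 bases before the start site of Iars2 and Taco1 are shown as members that fell, and those of Vars2 because they hold the NRF1 core at 2 places, in capitals. They lie at chr1:185329402-185329651 (minus strand), chr11:106065841-106066090 (plus strand) and chr17:35667593-35667842 (minus strand) of GRCm38.p6.
Iars2: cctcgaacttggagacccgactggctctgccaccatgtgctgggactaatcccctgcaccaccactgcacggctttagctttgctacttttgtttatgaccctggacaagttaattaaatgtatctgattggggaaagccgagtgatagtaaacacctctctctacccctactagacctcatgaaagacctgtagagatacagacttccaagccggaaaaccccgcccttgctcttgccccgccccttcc
Taco1: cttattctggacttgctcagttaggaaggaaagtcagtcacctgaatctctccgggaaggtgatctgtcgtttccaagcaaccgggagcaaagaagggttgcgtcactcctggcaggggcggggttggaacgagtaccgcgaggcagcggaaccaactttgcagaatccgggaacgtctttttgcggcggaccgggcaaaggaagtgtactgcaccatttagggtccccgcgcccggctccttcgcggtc
Vars2: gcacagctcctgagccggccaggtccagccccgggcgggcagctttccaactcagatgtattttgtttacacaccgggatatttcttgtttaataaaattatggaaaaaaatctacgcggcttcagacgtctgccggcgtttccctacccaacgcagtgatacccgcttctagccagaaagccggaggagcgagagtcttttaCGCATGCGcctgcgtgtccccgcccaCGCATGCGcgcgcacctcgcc

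None of the 5 motifs was found in the Iars2 and Taco1 windows. The Tars2 window lies 5229 bases from the start of the gene in GENCODE and is not shown.

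Several members share a start region with a neighbour on the other strand: 14 of the 40 had a protein-coding gene starting within 1000 bases in the opposite direction. Gatb, Iars2, Tars2 and Taco1 had no such protein-coding neighbour; antisense genes such as Taco1os, which overlaps the start of Taco1, were not counted. Qrsl1 starts 62 bases from Rtn4ip1, which had a log2 change of -0.56 ± 0.15 (paired adjusted p = 0.0835) beside -0.07 ± 0.11 for Qrsl1. Ptcd2 starts 81 bases from the mitochondrial ribosomal gene Mrps27, at -0.29 ± 0.08 (adjusted p = 0.0932) beside -0.32 ± 0.09 for Ptcd2. Ears2 starts 88 bases from Ubfd1, at 0.10 ± 0.10 (adjusted p = 0.642) beside -0.63 ± 0.14 for Ears2. These neighbours were picked from 13 tested ones after their values were seen. They were level with the member in Ptcd2 and apart in Ears2 and Qrsl1. Among the rest, Rars2 and Orc3 were also level (paired log2 changes -0.29 and -0.26), as were Fars2 and Lyrm4 (-0.18 and -0.19). Mrrf and Rbm18 were apart (-0.12 and 0.19), as were Sars2 and Mrps12 (-0.29 and -0.06). The differences within these pairs of genes were not tested.

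Other lists of the mitochondrial translation pathway had medians between -0.28 and -0.04 on the log2 scale, beside -0.20 for the members. Of 77 tested mitochondrial ribosomal protein genes, 62 lay below 0 with a median log2 change of -0.12, and 1 fell, Mrpl24, to 0.722 of its control level (paired adjusted p = 0.0466), with 26.3% of its exonic bases shared with another gene. Among 21 ribosome assembly factors, 18 lay below 0 (median -0.13) and the GTPase gene Mtg1 fell to 0.671 (adjusted p = 0.0471). The 13 further translation and quality control factors had a median of -0.28, and Spg7, a subunit of an inner-membrane protease, fell to 0.742 (adjusted p = 0.0365). Of 14 genes for mitochondrial RNA stability, Fastk fell to 0.752 (adjusted p = 0.0471), with 26.1% of its exonic bases shared with another gene, and the list's median was -0.05. The 16 genes for tRNA processing had a median of -0.04, with 0 passing in either direction. The 18 cytosolic synthetases all lay below 0 with a median of -0.07; Mars, for methionine, fell to 0.751 (adjusted p = 0.0321). In each of these lists 0 genes rose. Of all genes tested, 0.851% fell and 1.43% rose, so a single call describes that gene and not its list.

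Genes of the mitochondrial genome took 3.03%, 2.87% and 2.50% of the counts in the controls and 3.74%, 3.48% and 3.91% in the knockouts, with no overlap (p = 0.1 by a two-sided exact permutation). Of its 19 tested genes, 4 rose in the paired test: mt-Nd1, mt-Nd2, the ribosomal RNA gene mt-Rnr1 and the leucine tRNA gene mt-Tl1. The gene mt-Tl1, whose tRNA is a substrate of the Lars2 enzyme, had 11.8, 16.3 and 5.66 CPM in the controls and 20.6, 24.8 and 11.7 CPM in the knockouts. It was higher in each pair (paired log2 change 0.80 ± 0.12, adjusted p = 0.0234) although the groups overlapped. These counts do not separate the mature tRNA from longer RNAs that span the gene. In mt-Nd2, a complex I subunit gene, the controls had 2850.7, 2965.5 and 2490.8 CPM and the knockouts 4520.7, 3978.5 and 4234.9 CPM, well apart, and it rose 1.54-fold (adjusted p = 0.0226). The mitochondrial share of counts can also vary with RNA quality, which was not tested. More genes had a count in every knockout library (19943, 19518 and 20085) than in any control (19320, 18949 and 19073). The part of either difference in the members' values was not tested.

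**Figure D4:**
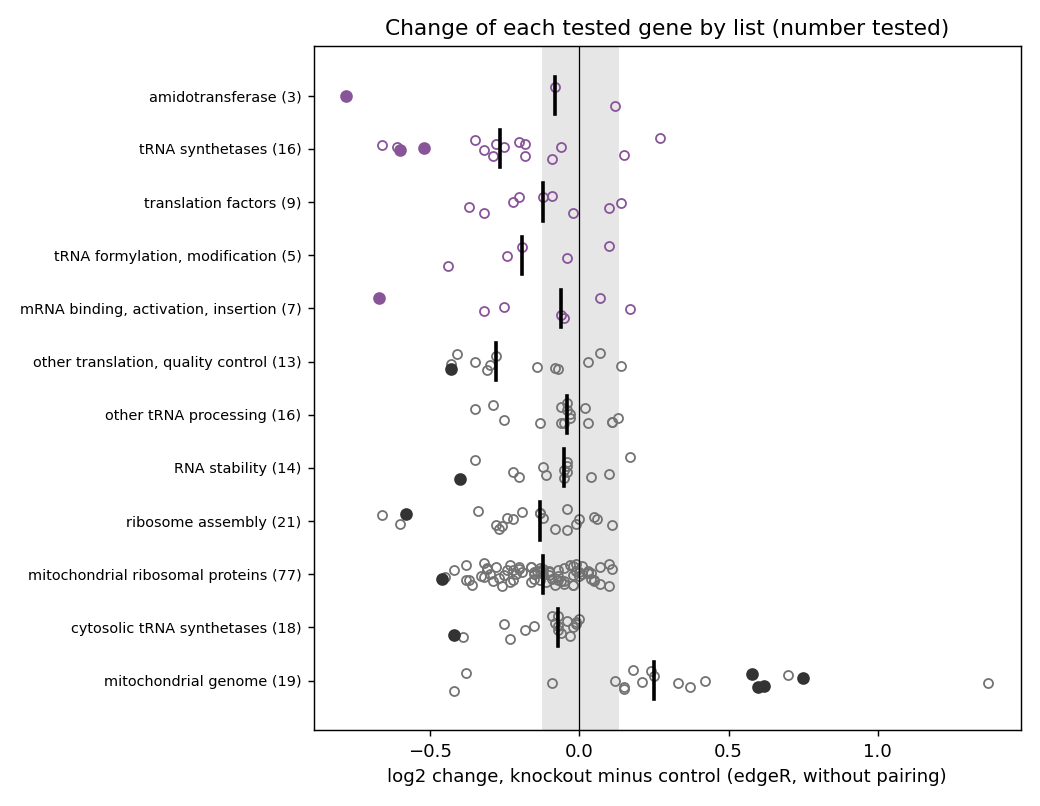
Log2 change (knockout minus control, edgeR without pairing) of every tested gene in the 5 roles of the members (purple) and in 7 other lists (grey); filled points passed the paired test, black bars are medians, and the grey band holds the middle 50% of all genes tested. The medians lie at -0.27 for the synthetases, -0.12 for the translation factors and the mitochondrial ribosomal proteins, and 0.25 for the mitochondrial genome; the band describes single genes and is no measure for a median.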

How the data were processed

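The authors deposited 1 table of raw counts, not normalized, with a row for each Ensembl gene. The submitters' processing notes name STAR, featureCounts, DESeq and the build mm10. Versions, strand setting and the handling of reads that match several genes were not given in the sources used here. Whether reads of overlapping genes were told apart by strand is therefore not known.

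Columns were matched to samples by the names in the sample titles. Symbols, positions and exon lengths came from GENCODE M21 (GRCm38), which held 55230 of the 55471 identifiers; the rest held at most 0.00138% of any library's counts. Library totals lay between 17749533 and 18272622 counts. The main tool was edgeR 4.0.16 under R 4.3.3, with TMM scaling, its own expression filter, the two-sided quasi-likelihood test and Benjamini-Hochberg adjustment over 13044 genes at a threshold of 0.05. The fit without pairing was the main one, and a fit blocked on replicate number, called the paired test, its alternative. Same-numbered libraries deviated together from their group means, with correlations of 0.15, 0.464 and 0.383, so the numbers were treated as pairs. Libraries of unlike number gave -0.446 to 0.0531, the highest for control 2 with knockout 1. Deviations from the mean of 3 libraries are tied to each other, so these correlations are not independent. No label explains the numbering, so the pairing rests on the same counts that the paired test used. DESeq2 1.42.0, limma 3.58.1 (voom), other scalings and filters, and leaving out libraries or pairs were further alternatives. CPM use TMM-adjusted library sizes; levels per length divide CPM by the kilobases of all annotated exons. Ratios, sums and shares per library were compared by exact permutation, two-sided. Scripts were tested on simulated data with known changes. Transcripts were searched for near-identical copies.

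The members and all lists were chosen with earlier results of these data known. All 40 members may be named. Values in every library are given for Gatb, Gatc and Qrsl1, for members called in either edgeR test, for the 12 other members with the smallest unadjusted p without pairing, and for the highest and lowest member per length; a few others are shown beside them. Genes outside the members are those called in their list, and others chosen after their values were seen.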

Additional observations from a re-analysis of the deposited data

How the results depend on the processing

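Without pairing edgeR called 0 genes, and leaving out 1 library gave 0 to 30 genes higher, 0 to 1 lower, and 0 members. The replicate block gave 187 genes higher and 111 lower, with 4 members lower; without pair 1 it gave 507, 207 and 6, and without pair 2 it gave 140, 54 and 5. Without pair 3 the replicate block called 0 genes. DESeq2 gave 93 higher, 40 lower and 3 members; DESeq2 with the replicate block gave 157, 157 and 4; no filter on low counts gave 62, 12 and 2. The cause of these shifts was not tested. With members sharing under 10% of exonic bases, chosen after seeing the data, the block called 2 members, Gatb and Tars2. The log2 change of Gatb was -0.78 in DESeq2, -0.79 in DESeq2 with the block, without the filter and in the block, -0.65 in the block without pair 1 and -0.84 without pair 2; these calls passed, and leaving out 1 library gave -0.87 to -0.63. The members' median was -0.16 in the block without pair 1 and -0.21 to -0.16 without 1 library, and 30 to 33 members lay below 0.

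Within pairs 1 and 2, the difference in the log2 ratio of Gatb to Gatc was -1.17 and -0.60, and of Gatb to Qrsl1 -1.13 and -0.48; without 1 library they ranged from -1.07 to -0.72 and from -0.82 to -0.61. The mitochondrial share differed by 0.608 percentage points within pair 2 and 1.41 within pair 3, and by 0.757 to 1.03 without 1 library.

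Of the 40 members, 29 kept their direction under all 17 alternatives, and 11, all close to 0, reversed at least once. In the block, without pair 1 Tsfm was -0.07, Gtpbp3 -0.02 and Ptcd3 0.00; without pair 2 Hars2 was 0.02 and Mtif3 0.04; without pair 3 Aars2 was 0.01, Tufm 0.03 and Mtrf1l -0.01. Without pairing, Ptcd3 was 0.02 without control 1, Qrsl1 0.03 without control 2, Mars2 -0.01 without control 3, Tsfm -0.01 without knockout 1, Mtif3 0.05 without knockout 2, and without knockout 3 Tufm was 0.04 and Ptcd1 0.02. Leaving out 1 library moved Qrsl1 from -0.19 to 0.03, Mars2 from -0.01 to 0.28, Tsfm from -0.01 to 0.17, Mtif3 from -0.08 to 0.05, Ptcd1 from -0.15 to 0.02, Ptcd3 from -0.12 to 0.02 and Tufm from -0.16 to 0.04. Members had between 79 and 4058 counts in a library; Mtrf1, with the fewest, also had the largest SE without pairing, 0.20.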
